A study of Mus musculus with 2 samples.

Results

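The cells described here are lung barcodes rich in C1q, the gate used for interstitial macrophages, in 1 library taken 6 hours after hepatic ischemia-reperfusion (HIR) and 1 library after sham surgery. Barcodes entered with 200 genes or more and no more than 20% of their UMIs (unique molecular identifiers, each counting 1 captured transcript) in mitochondrial genes. Members were then chosen by their counts of C1qa, C1qb and C1qc, of which they held 10 UMIs or more together. A member also had to hold fewer than 3 UMIs of Plet1 and Krt79, which mark alveolar macrophages, less than 5% of its UMIs in the neutrophil genes S100a8 and S100a9, and less than 5% in the surfactant gene Sftpc. The rule found 153 members in the HIR library and 183 in the sham library, 336 of 20218 barcodes in all. Since these counts chose the members, the levels of C1q and of the excluded genes are a description and not a result.

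Interstitial macrophages live in the connective tissue around the airways and vessels of the lung, apart from the alveolar macrophages of the air spaces. They present antigen, clear dying cells and secrete chemokines. C1q, built from the chains C1qa, C1qb and C1qc, starts the classical complement pathway and tags dying cells for uptake. In the mouse these macrophages are often split into a perivascular kind that carries Lyve1, Folr2 and the scavenger receptor Cd163, and a kind with more major histocompatibility complex class II (MHC II) and less Lyve1. Roles of genes given below are those known for the mouse or human gene of the same symbol.

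Both libraries were made from wild type lungs by droplet single-cell sequencing after enzymatic digestion and lysis of red cells. In HIR the blood supply of the liver is interrupted and then restored, and the lung is a distant organ. The HIR library held 9499 barcodes, of which 8593 passed the limits on genes and mitochondrial UMIs, and the sham library held 10719, of which 9438 passed. With 1 library per group there are no replicates and no test. The labels give neither the age nor the number of the animals. Every interval below is an exact or log-scale 95% interval for counting error only, and a difference between the libraries cannot be told apart from a difference between any 2 lungs, dissociations or runs. The labels name the mouse, while all 32883 features carry rat Ensembl identifiers, so symbols are given as the files have them. MHC II genes therefore appear as RT1 genes.

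Members were sequenced to similar depth in both libraries. They held 1213799 UMIs in the HIR library and 1605063 in the sham library. The median member had 7326 UMIs and 2222 genes in HIR, and 7459 UMIs and 2211 genes in sham. Mitochondrial genes took a median of 8.0% of UMIs in HIR members and 7.87% in sham members. The largest member held 22414 UMIs in HIR and 59756 in sham. No barcode sequence was shared between the members of the libraries, against 24 shared over all barcodes.

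C1q was far above the threshold in most members. The median member had 137 C1q UMIs in HIR (quartiles 87 and 188) and 125 in sham (quartiles 87 and 163). At least 50 C1q UMIs were found in 127 HIR and 161 sham members, while 15 HIR and 6 sham members lay just inside the threshold, at 10 to 19. Just outside it, 12 HIR and 9 sham barcodes held 5 to 9. The lowest member held 10 C1q UMIs in HIR and 11 in sham, and the highest barcode below the threshold held 9 in both. Levels of the 3 chains in CPM (counts per 1000000 UMIs of the members) were 4363 in HIR and 4622 in sham for C1qa, 6799 in HIR and 5177 in sham for C1qb, and 6060 in HIR and 4951 in sham for C1qc.

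Markers of macrophages and of other cells were then summed over the members. The 12 markers of interstitial macrophages (Ms4a7, Apoe, Csf1r, Mrc1 and others) reached 9553 CPM in HIR members and 9110 in sham members, against 1555 in HIR and 1443 in sham over all kept barcodes. In alveolar macrophages they summed to 1715 CPM in HIR and 1311 in sham. Apoe alone gave 4418 CPM in HIR and 4992 in sham members. Mrc1 did not part the 2 kinds, at 1553 in HIR and 907 in sham members. It was at 1429 in HIR and 1024 in sham alveolar macrophages. Mertk was at 47.0 in HIR members and 52.7 in HIR alveolar macrophages. After the C1q chains, the genes with the highest level in members relative to all other barcodes included Pf4, Folr2, Clec10a, RT1-Db1, RT1-Da, Trem2, Mmp12, Cd163 and Cd74. Alveolar macrophage markers summed to 278 CPM in HIR members and 321 in sham members, against 4939 in HIR and 4014 in sham alveolar macrophages. Of these markers the lipid carrier Fabp4 was at 45.3 CPM in HIR and 17.4 in sham members, against 2005 in HIR and 1160.4 in sham alveolar macrophages. The cytokine Il18 was at 106 CPM in HIR and 120.2 in sham members, against 564 in HIR and 666 in sham alveolar macrophages. Pparg was also lower in members, at 5.77 CPM in HIR and 12.5 in sham, against 215 in HIR and 230 in sham alveolar macrophages. Other genes of the list did not part the 2 kinds. Ca4 was at 51.1 CPM in HIR and 72.9 in sham members, against 16.5 in HIR and 25.7 in sham alveolar macrophages. Itgax was at 31.3 in HIR and 44.9 in sham members, against 24.2 in HIR and 44.1 in sham alveolar macrophages. Fabp1, Marco and Atp6v0d2 were at or near 0 in alveolar macrophages too, so their 0 in members says nothing. T cell markers summed to 17.3 CPM in HIR and 17.4 in sham members. Classical monocyte markers summed to 453 CPM in HIR and 568 in sham members, among them Plac8, at 274 in HIR and 211 in sham, and Fn1, at 70.9 in HIR and 217 in sham. Clec10a, a lectin on the dendritic cell list that macrophages also carry, was at 1033 CPM in HIR and 646 in sham members. Flt3, which marks dendritic cells more strictly, was at 4.12 CPM in HIR and 2.49 in sham members. Ly6c, Cd209a and Dcstamp were at or near 0 over all kept barcodes and could not serve as markers.

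RNA of other cells differed between the libraries and stands beside the results that it touches. Neutrophil markers summed to 605 CPM in HIR members and 158 in sham members, against 29304 in HIR and 4072 in sham over all kept barcodes. S100a8 itself was at 292 CPM in HIR members and 47.4 in sham members, which is 2.04% of its level over all kept HIR barcodes and 2.98% of that over all kept sham barcodes. Fibroblast markers went the other way, with 302 CPM in HIR and 887 in sham members. Alveolar type 2 markers summed to 1131 CPM in HIR and 756 in sham members, and endothelial markers to 410 in HIR and 543 in sham. Scrublet called 26 HIR and 24 sham members as doublets. Lineage genes of other cells or collagen and decorin transcripts reached a set minimum in 30 HIR and 30 sham members, and values without these members are given where they matter.

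Members made up a similar share of barcodes in both libraries. The share was 1.78% of kept barcodes in HIR (95% interval 1.51 to 2.08%) and 1.94% in sham (1.67 to 2.24%), a ratio of 0.918 (0.742 to 1.14). Of barcodes with Ptprc, the pan-leukocyte gene, members were 4.83% in HIR and 5.93% in sham, a ratio of 0.814 (0.661 to 1.0). With barcodes rich in S100a8 and S100a9 left out of the denominator the ratio was 1.06 (0.856 to 1.31). All these intervals of the ratio hold 1.

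Gene levels in HIR were set against sham with 10 CPM added to each, over the 2878 genes that reached 50 CPM in HIR or sham members and 30 UMIs in their sum. Of these, 1361 (47.3%) were higher in HIR by any amount, 24 (0.834%) were at least 2-fold higher and 51 (1.77%) at least 2-fold lower. The median log2 ratio was -0.02. Of the 24 higher genes, 11 stayed past 2-fold in each of 3 recalculations, which left out the richest barcode of the gene, averaged CPM over barcodes, or left out members with lineage or stromal RNA. These 11 were Ccl4, Cxcl10, Cd163, Cebpd, Slc28a2, Pla2g7, Il1r2, Slc11a1, Mgst2, Slfn4 and S100a8. The rule limits S100a8, as well as S100a9, which is also among the 24, so both are listed as a description. Of the 51 lower genes, 9 stayed past 2-fold in all 3, among them Ms4a7, Vldlr, Dbp, Epsti1, G0s2, Stmn1, Birc5 and Ube2c. Among the other lower genes was the collagen gene Col3a1, at 170 CPM in HIR and 546 in sham members, whose log2 ratio was -0.16 without the members that held lineage or stromal RNA.

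**Figure D1:**
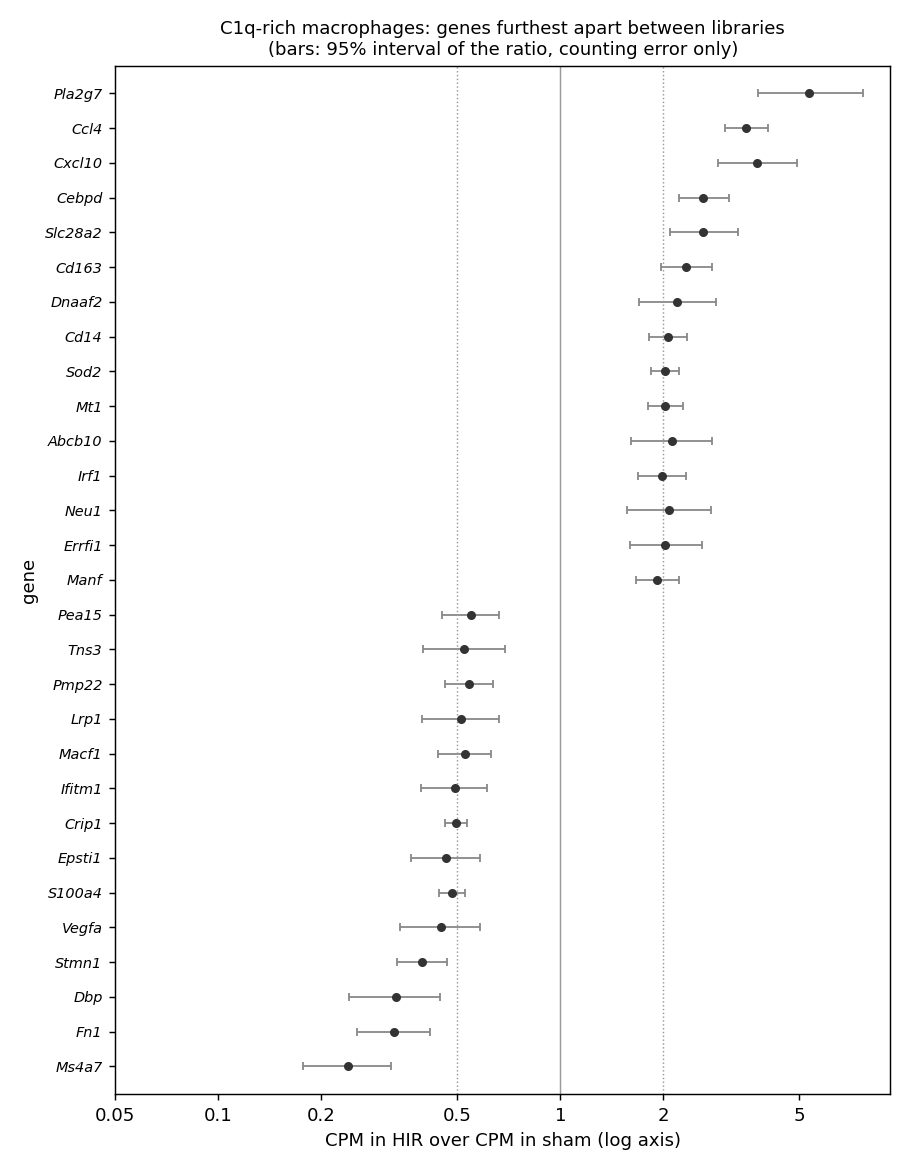
Ratio of CPM in HIR members over CPM in sham members (log axis) for the 15 highest and 14 of the 15 lowest genes by the naming rule, with 95% counting intervals as bars. Dotted lines mark ratios of 0.5 and 2. Pla2g7 has the highest ratio shown, 5.32, and Ms4a7 the lowest shown, 0.24.

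Chemokine genes were mostly higher in HIR members. Of 14 chemokines that could be set side by side, 12 were higher in HIR, against 47.3% of all tested genes. At least 2-fold higher were 3 of them, Ccl4, Cxcl10 and Ccl5, against 0.834% of all tested genes. Of these, Ccl5 rested on 1 HIR barcode. None was 2-fold lower, and the median log2 ratio was 0.45 against -0.02 over all genes. Ccl4, a chemokine for monocytes and T cells, was at 554 CPM in HIR and 158 in sham members, a ratio of 3.50 (3.02 to 4.06). A Ccl4 UMI was found in 55.6% of HIR and 28.4% of sham members. Among endothelium-marked barcodes, which should lack it, the share was 1.29% in HIR and 0.97% in sham, at a median depth of 2811 UMIs in HIR and 3119 in sham. The median HIR member held 123 CPM of Ccl4 (quartiles 0 and 600.1), while the median sham member held 0 (quartiles 0 and 118), so the libraries overlap barcode by barcode.

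Cxcl10, the interferon-induced ligand of Cxcr3, was at 185 CPM in HIR and 49.2 in sham members, a ratio of 3.75 (2.89 to 4.91). It was found in a minority of members, with a UMI in 19.6% in HIR and 11.5% in sham. Over the alternative settings its log2 ratio ranged between 0.39 and 2.35. The neutrophil attractant Cxcl1 was at 3381 CPM in HIR and 1925 in sham, a ratio of 1.76 (1.68 to 1.84), and its close relative Cxcl3 was at 82.4 CPM in HIR and 52.3 in sham. Ccl3, a related inflammatory chemokine, was at 1369 CPM in HIR and 948 in sham, and Ccl12, a chemokine for monocytes, at 269 CPM in HIR and 140 in sham. The monocyte attractant Ccl2 differed little, at 2622 CPM in HIR and 2277 in sham, a ratio of 1.15 (1.10 to 1.21). Pf4 was lower, at 943 CPM in HIR and 1058 in sham. Ccl24 was at 97.2 CPM in HIR and 108 in sham, and the interval of its ratio (0.704 to 1.14) holds 1. The ratio of Ccl5 rested on a single HIR barcode, which held 93.0% of its HIR UMIs. With the richest barcode of the gene left out, the log2 ratio of Ccl5 was 0.48.

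Cxcl2, a neutrophil attractant of the Cxcr2 pathway that was listed as a marker of these cells, was found in most members of both libraries. A Cxcl2 UMI was present in 133 of 153 HIR members (86.9%, 80.5 to 91.8%) and in 159 of 183 sham members (86.9%, 81.1 to 91.4%). The share among endothelium-marked barcodes was 6.87% in HIR and 5.47% in sham. The median member held 42 Cxcl2 UMIs in HIR and 41 in sham. The spread was wider in HIR, with quartiles of 5 and 105 UMIs and a maximum of 362, than in sham, with quartiles of 11.5 and 90 and a maximum of 231. Its pooled level was 8114 CPM in HIR and 6349 in sham members, a ratio of 1.28 (1.24 to 1.31).

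**Figure D2:**
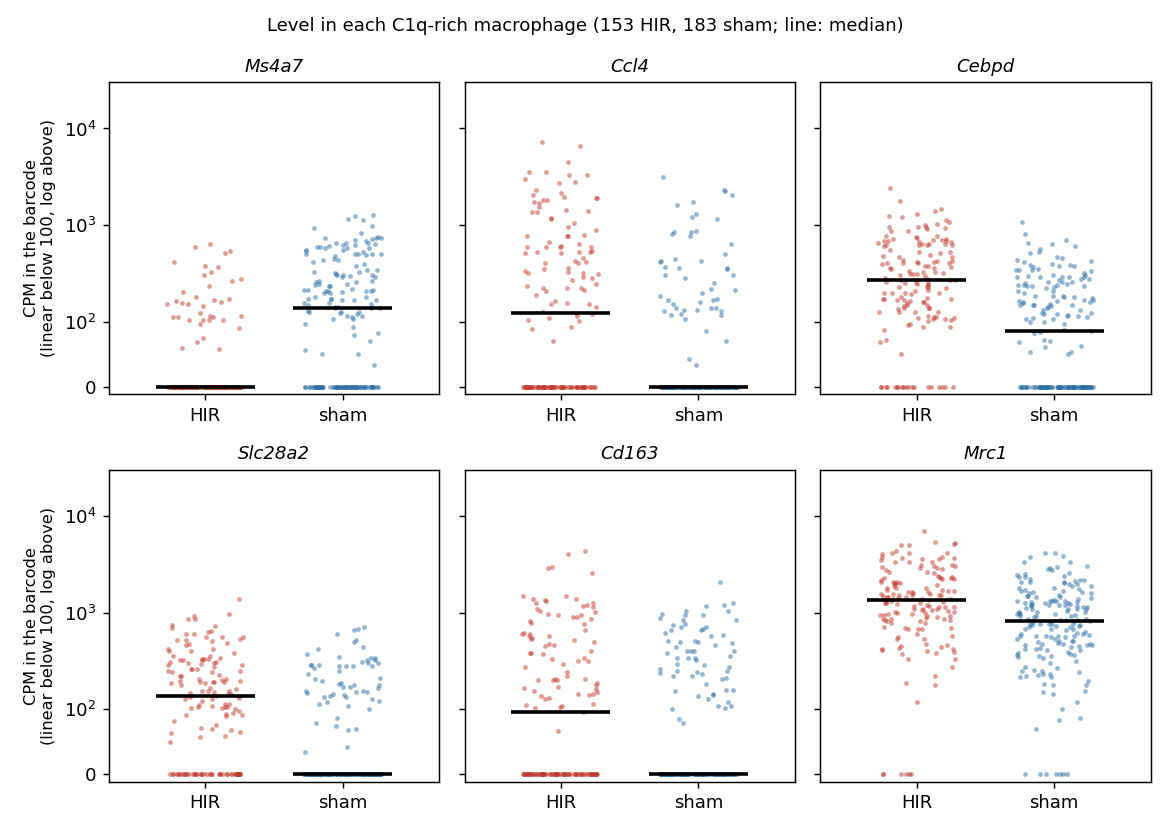
CPM of 6 genes in each member (axis linear below 100 CPM and logarithmic above), HIR members left and sham members right in each panel, with the median of each library as a line. The median of Ms4a7 is 0 in HIR and 139 CPM in sham, and that of Mrc1 is 1364 CPM in HIR and 818 CPM in sham.

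Transcripts of the NF-kB pathway and of the early response to stimuli were also mostly higher in HIR. On the list of NF-kB feedback genes 12 of 13 were higher, and on that of immediate early genes 18 of 19. Over all tested genes the share was 47.3%. The median log2 ratios of these lists were 0.43 and 0.35. Nfkbia, which encodes the inhibitor that holds NF-kB in the cytoplasm, was at 1967 CPM in HIR and 1327 in sham, a ratio of 1.48 (1.40 to 1.57). Sod2, the mitochondrial superoxide dismutase and an NF-kB target, was at 956 CPM in HIR and 472 in sham, a ratio of 2.03 (1.85 to 2.22). The median member held 664 CPM of Sod2 in HIR (quartiles 280.4 and 1282) and 358 in sham (quartiles 127 and 769). The adhesion molecule Icam1 was at 290.0 CPM in HIR and 193 in sham, and Irf1, an interferon-responsive factor from another list, at 316 in HIR and 159 in sham. The mRNA decay factor Zfp36 was at 1640 CPM in HIR and 1191 in sham. Of the cytokines, 4 of 7 were higher, with a median log2 ratio of 0.04. The inflammatory cytokine Il1b was at 1209 CPM in HIR and 824 in sham, a ratio of 1.47 (1.36 to 1.58), and Osm, which acts on stromal cells, at 169 in HIR and 113 in sham.

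The transcription factors Cebpd and Cebpb, which drive acute-phase and myeloid genes, were both higher in HIR members. Cebpd was at 348 CPM in HIR and 133 in sham, a ratio of 2.62 (2.22 to 3.10). The median HIR member held 270.3 CPM (quartiles 127 and 620), and the median sham member 85.5 CPM (quartiles 0 and 238). The lower quartile of HIR members lay above the sham median. Cebpd was not particular to these cells, since its ratio over all other kept barcodes was 2.78. Cebpb was at 2114 CPM in HIR and 1262 in sham, a ratio of 1.68 (1.58 to 1.78). On the list of factors that set macrophage fate, 10 of 15 were higher in HIR, against 47.3% of all tested genes. Maf, a bZIP factor of mature macrophages, was at 65.9 CPM in HIR and 38.6 in sham. Id3, known for its role in tissue macrophages of the liver, was at 141 CPM in HIR and 221 in sham.

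Targets of the glucocorticoid receptor formed a further list with most genes higher, 15 of 19, against 47.3% of all tested genes. At least 2-fold higher were 3, against 0.834% of all tested genes, and the median log2 ratio was 0.42. Cd163, the receptor for hemoglobin bound to haptoglobin, was at 308 CPM in HIR and 132 in sham, a ratio of 2.33 (1.97 to 2.77). It was found in 51.0% of HIR and 36.6% of sham members, against 0.21% of HIR and 0.09% of sham endothelium-marked barcodes. The decoy receptor Il1r2 was at 62.6 CPM in HIR and 17.4 in sham, with a single barcode holding 50% of the sham UMIs. Il1r2 is also on the neutrophil list, and its ratio over all other kept barcodes was 16.4. The metal-binding Mt1 was at 582 CPM in HIR and 287 in sham. Other genes of the list differed less or went the other way. The log2 ratio was 0.21 for Tsc22d3, -0.40 for Txnip and -0.43 for Sesn1. Nr3c1, the receptor itself, was lower, at 50.3 CPM in HIR and 87.8 in sham. Outside that list, Dbp, a clock output factor with a strong daily rhythm, was at 45.3 CPM in HIR and 137 in sham, a ratio of 0.33 (0.24 to 0.45). Dbp was lower over all other kept barcodes too, with a ratio of 0.395. The labels give no time of day.

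Several receptors for antibodies, scavenged ligands and bacterial products were higher in HIR. Of 7 tested genes on the Fc receptor list 6 were higher in HIR, against 47.3% of all tested genes. The median log2 ratio of this list, 0.51, was the highest of the 26 lists, though none of its genes was 2-fold higher. The 7 include Ms4a6a, which is not an Fc receptor, and the median without it was not computed. The inhibitory receptor Fcgr2b was at 168 CPM in HIR and 87.8 in sham, a ratio of 1.91 (1.54 to 2.39), and the high-affinity receptor Fcgr1a at 207 in HIR and 143 in sham. Fcer1g, the signalling chain of Fcgr1a, was at 1515 CPM in HIR and 1518 in sham. Cd14, the co-receptor for lipopolysaccharide, was at 522 CPM in HIR and 253 in sham, a ratio of 2.06 (1.82 to 2.34). The mannose receptor Mrc1 was at 1553 CPM in HIR and 907 in sham, a ratio of 1.71 (1.60 to 1.83). The median member held 1364 CPM of Mrc1 in HIR (quartiles 821 and 2259) and 818 in sham (quartiles 423 and 1374), so that the HIR median lay near the sham upper quartile. The scavenger receptor Msr1 was at 74.1 CPM in HIR and 33.0 in sham, a ratio of 2.25 (1.58 to 3.22).

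Pla2g7 and Slc28a2 were found in a larger share of HIR members. Pla2g7, a secreted enzyme that breaks down platelet-activating factor, was at 139 CPM in HIR and 26.2 in sham, a ratio of 5.32 (3.78 to 7.65). It had a UMI in 36.6% of HIR and 10.9% of sham members, against 1.08% of HIR and 0.26% of sham endothelium-marked barcodes. Slc28a2, a nucleoside transporter, was at 193 CPM in HIR and 73.5 in sham, a ratio of 2.62 (2.09 to 3.30), with a UMI in 70.6% of HIR and 32.8% of sham members. Among endothelium-marked barcodes the shares for Slc28a2 were 16.9% in HIR and 7.36% in sham. Both genes were also higher over all other kept barcodes, with ratios of 4.59 for Pla2g7 and 2.41 for Slc28a2. The iron transporter Slc11a1 was at 70.0 CPM in HIR and 27.4 in sham. The endoplasmic reticulum stress factor Manf was at 383 CPM in HIR and 199 in sham, and the lysosomal sialidase Neu1 at 109 in HIR and 52.3 in sham. Errfi1, a feedback inhibitor of the EGF receptor, was at 144 CPM in HIR and 71.0 in sham. Slfn4, a Schlafen gene of myeloid cells, was at 66.7 CPM in HIR and 3.74 in sham members, and Mgst2, a microsomal glutathione transferase, at 60.1 in HIR and 17.4 in sham. Slfn4 and Mgst2 were named after their values were seen, and both were higher over all kept barcodes than in members, at 230.0 and 242 CPM in HIR.

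Ms4a7, a tetraspan gene that marks interstitial macrophages and was listed as a marker of these cells, was lower in HIR members. It had 55 UMIs or 45.3 CPM in HIR and 303 UMIs or 189 CPM in sham, a ratio of 0.24 (0.18 to 0.32). A UMI was found in 24.8% of HIR members (18.2 to 32.5%) and 61.2% of sham members (53.7 to 68.3%). With every member thinned to 2000 UMIs the shares were 10.5% in HIR and 33.3% in sham. Endothelium-marked barcodes held it in 0% in HIR and 0.18% in sham, and alveolar macrophages at 0 CPM in HIR and 0.722 in sham. The upper quartile of HIR members was 0 CPM, while the sham median was 139 CPM and its upper quartile 330.1. Over all alternatives the log2 ratio lay between -2.05 and -1.53.

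Of the macrophage identity genes, 7 of 20 were higher in HIR, against 47.3% of all tested genes. There was 1 gene past 2-fold in each direction, and the median log2 ratio was -0.17. Csf1r, the receptor for the growth factor that macrophages depend on, was at 861 CPM in HIR and 991 in sham, and Adgre1, the F4/80 antigen, at 116 in HIR and 135 in sham. Ms4a6a, a relative of Ms4a7, was at 173 CPM in HIR and 103 in sham. Tmem176a and Tmem176b, membrane proteins of antigen-presenting cells, were at 825 and 1094 CPM in HIR, and 1239 and 1774 CPM in sham. Trem2, a receptor for lipids and dying cells, was at 189 CPM in HIR and 298 in sham, a ratio of 0.63 (0.54 to 0.74).

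Genes of other roles were lower in HIR too. Epsti1, an interferon-responsive gene of macrophages, was at 83.2 CPM in HIR and 179 in sham, a ratio of 0.46 (0.37 to 0.58). It had a UMI in 45.1% of HIR and 72.1% of sham members, against 0.31% of HIR and 0.62% of sham endothelium-marked barcodes. Of 5 tested genes of the interferon list 2 were higher, Cxcl10 and Irf1, against 47.3% of all tested genes. The list median log2 ratio was -0.09. S100a4, a calcium-binding protein of motile cells, was at 587 CPM in HIR and 1219.9 in sham, a ratio of 0.48 (0.44 to 0.52), with a UMI in 44.4% of HIR and 66.1% of sham members. The small LIM protein Crip1 was at 808 CPM in HIR and 1627 in sham. Vldlr, a lipoprotein receptor named after its values were seen, was at 10.7 CPM in HIR and 64.2 in sham, with a UMI in 7.84% of HIR and 33.3% of sham members. Fibronectin (Fn1) had a log2 ratio of -1.49, which became -0.59 without members that held lineage or stromal RNA, and 1 barcode held 51.2% of its HIR UMIs and 33.0% of its sham UMIs. Vegfa was at 62.6 CPM in HIR and 140.2 in sham, and its direction turned when Scrublet doublets were left out, with a log2 ratio of 0.09.

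Antigen presentation genes differed little between the libraries. Of 9 MHC II pathway genes, 3 were higher in HIR, against 47.3% of all tested genes. None was 2-fold apart, and the median log2 ratio was -0.04. The invariant chain Cd74 was at 20181 CPM in HIR and 20346 in sham, a ratio of 0.99. RT1-Da was at 10933 CPM in HIR and 11489 in sham, and RT1-Db1 at 8466 in HIR and 8770.4 in sham. Ciita, the master regulator of MHC II, was at 54.4 CPM in HIR and 64.2 in sham. Of 10 complement genes 6 were higher and none 2-fold apart, with a median log2 ratio of 0.08, but 3 of the 10 are the C1q chains that chose the members. Without these, 4 of 7 complement genes were higher and the median log2 ratio was 0.06.

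Genes of clearance, lipids and stress gave smaller or mixed differences. The counts of higher genes below stand beside a share of 47.3% over all tested genes. Of 12 efferocytosis genes 5 were higher in HIR, with a median log2 ratio of -0.21, and the bridging protein Mfge8 was at 129 CPM in HIR and 217 in sham. Of 12 lipid genes 4 were higher, among them the oxysterol enzyme Ch25h, at 610.5 CPM in HIR and 348 in sham, while Apoe was at 4418 in HIR and 4992 in sham. Of 20 lysosomal genes 12 were higher, with a median log2 ratio of 0.03. Of 14 iron and redox genes 8 were higher, with 1 past 2-fold. Heme oxygenase (Hmox1) was at 323 CPM in HIR and 212 in sham, a ratio of 1.52 (1.32 to 1.77). Of 12 heat shock genes 2 were higher. The endoplasmic reticulum chaperone Hspa5 was at 1542 CPM in HIR and 943 in sham, whereas the cytosolic Hspb1 was at 98.0 in HIR and 249 in sham, a log2 ratio of -1.26 that became -0.57 without members that held lineage or stromal RNA, and Hspa1b was at 259 in HIR and 386 in sham. Of 10 repair genes 1 was higher, and of 6 purine-sensing genes 2, with median log2 ratios of -0.23 and -0.43.

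**Figure D3:**
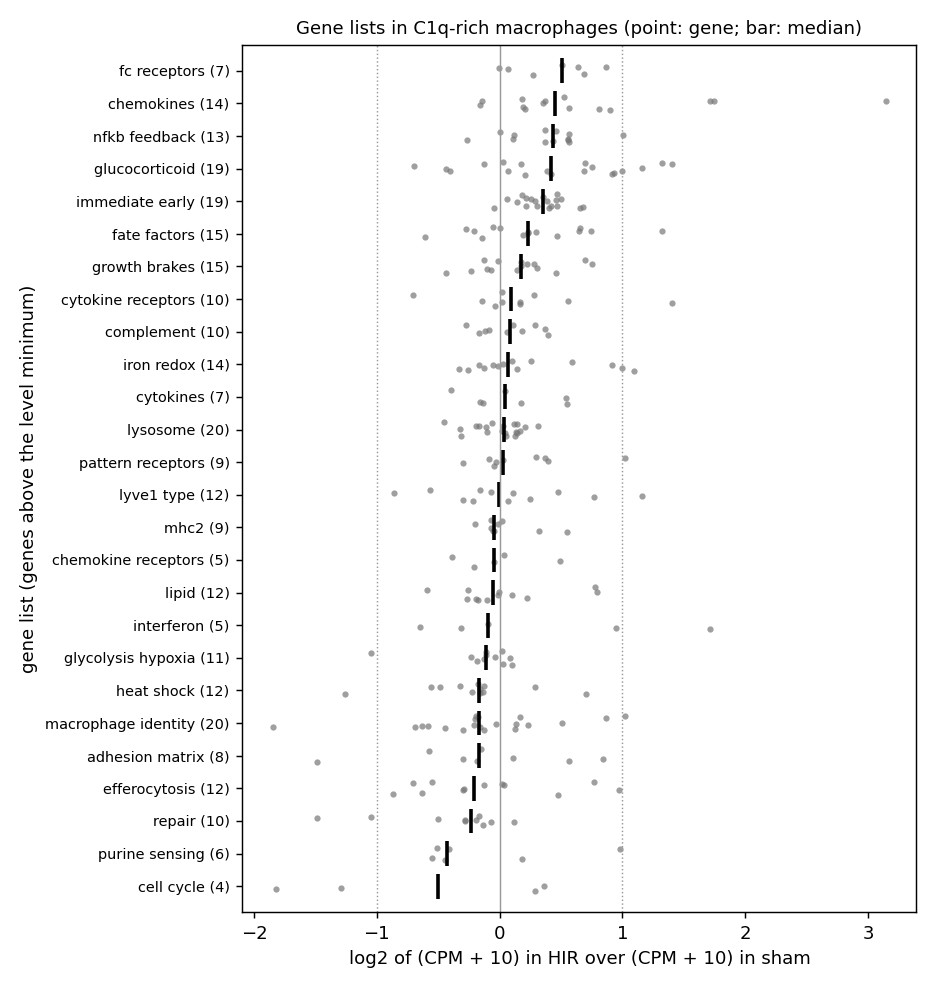
Log2 ratio of CPM in HIR members over CPM in sham members (10 CPM added) for each tested gene of 26 lists, 1 point per gene, with the list median as a bar and lists ordered by it. The Fc receptor list, which also holds Ms4a6a, has the highest median, 0.51, and the cell cycle list the lowest, -0.50.

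The Lyve1 side was larger among HIR members. At least 3 UMIs over Lyve1, Folr2 and Cd163 together were found in 104 of 153 HIR members (68.0%, 60.0 to 75.3%) and in 95 of 183 sham members (51.9%, 44.4 to 59.3%). A further 34 HIR (22.2%) and 60 sham members (32.8%) lay near the boundary with 1 or 2 UMIs, and 15 HIR (9.80%) and 28 sham members (15.3%) had 0. Cd163 itself was higher in HIR. By Lyve1 and Folr2 alone the shares were 59.5% in HIR (51.3 to 67.3%) and 45.9% in sham (38.5 to 53.4%). With members thinned to 2000 UMIs they were 27.3% in HIR (20.2 to 35.3%) and 18.9% in sham (13.45 to 25.4%). In both of these settings the intervals of the libraries overlap. Other cells gave a wide range of background. The same 3 UMIs were found in 2.40% of HIR and 3.02% of sham T cell barcodes, at a median depth of 5990 UMIs in HIR and 6056 in sham, and in 4.26% of HIR and 5.06% of sham alveolar macrophages. Endothelium-marked barcodes, which carry Lyve1, reached them in 1043 of 1937 in HIR and 1112 of 2268 in sham. Endothelial transcripts were higher on the Lyve1 side of the members, such as Cldn5, a junction protein, at 2.61-fold in HIR and 3.88-fold in sham. Without members that held lineage or stromal RNA, the Lyve1 side was 67.5% in HIR and 51.6% in sham. Lyve1, a hyaluronan receptor, was at 263 CPM in HIR and 242 in sham members, against 327 in HIR and 230 in sham over all kept barcodes, and Folr2, the folate receptor, at 348 in HIR and 292 in sham. The 12 tested genes of the perivascular list were mixed. Of these 6 were higher in HIR, against 47.3% of all tested genes, and the median log2 ratio was -0.00.

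Several differences between the libraries stood on both sides of this split, and others did not. The HIR over sham ratio of Ms4a7 was 0.21 among members with at least 3 such UMIs and 0.30 among those with fewer. That of Ccl4 was 3.91 and 2.73, that of Cebpd 2.64 and 2.31, and that of Pla2g7 6.12 and 5.76, in the same order. Dbp and Epsti1 likewise stayed below 1 on both sides. Cxcl10 was at a ratio of 3.57 on the Lyve1 side and 1.41 on the other side. Mt1 was at 2.94 on the Lyve1 side and 0.75 on the other, so its direction turned. Ccl2 turned too, at 2945 CPM (HIR) and 2404 (sham) on the Lyve1 side and 1712 (HIR) and 2122 (sham) on the other. Apoe turned the opposite way, at 5516 (HIR) and 8400 (sham) on the Lyve1 side and 1322 (HIR) and 866 (sham) on the other. Cd163, a gene that the split itself uses, was at ratios of 1.81 and 0.83. On the other side the split caps it below 3 UMIs per member. It was at 12.6 CPM in HIR and 15.1 in sham there, too few UMIs to give a direction.

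MHC II genes gave a second way to part the members. The MHC II genes together took a median of 4.75% of UMIs in HIR members and 5.87% in sham members. A separate set of members lay below 1%, a limit chosen after the values were seen. It held 30 of 153 HIR members (19.6%, 13.6 to 26.8%) and 33 of 183 sham members (18.0%, 12.8 to 24.4%). Few members lay just above the limit, with 6 in HIR and 5 in sham at 1 to 2%. The median MHC II share was 0.036% in the low members and 5.52% in the rest in HIR, and 0.021% in the low members and 6.53% in the rest in sham. C1q was well above the threshold in the low members too, with a median of 149.5 UMIs in HIR and 117 in sham, against 134 for the rest in HIR and 126.5 for the rest in sham.

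The MHC II-low members lay mostly on the Lyve1 side. That side held 27 of 30 low members in HIR (90.0%, 73.5 to 97.9%) and 30 of 33 in sham (90.9%, 75.7 to 98.1%). Among the rest it held 77 of 123 members in HIR (62.6%, 53.4 to 71.2%) and 65 of 150 in sham (43.3%, 35.3 to 51.7%). The larger Lyve1 side in HIR was thus seen among members with MHC II, at nearly equal shares among the low ones. Over members, the MHC II share and the Lyve1, Folr2 and Cd163 level had a Spearman correlation of -0.437 in HIR (n = 153) and -0.405 in sham (n = 183). These points share a library and a UMI total within each barcode.

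**Figure D4:**
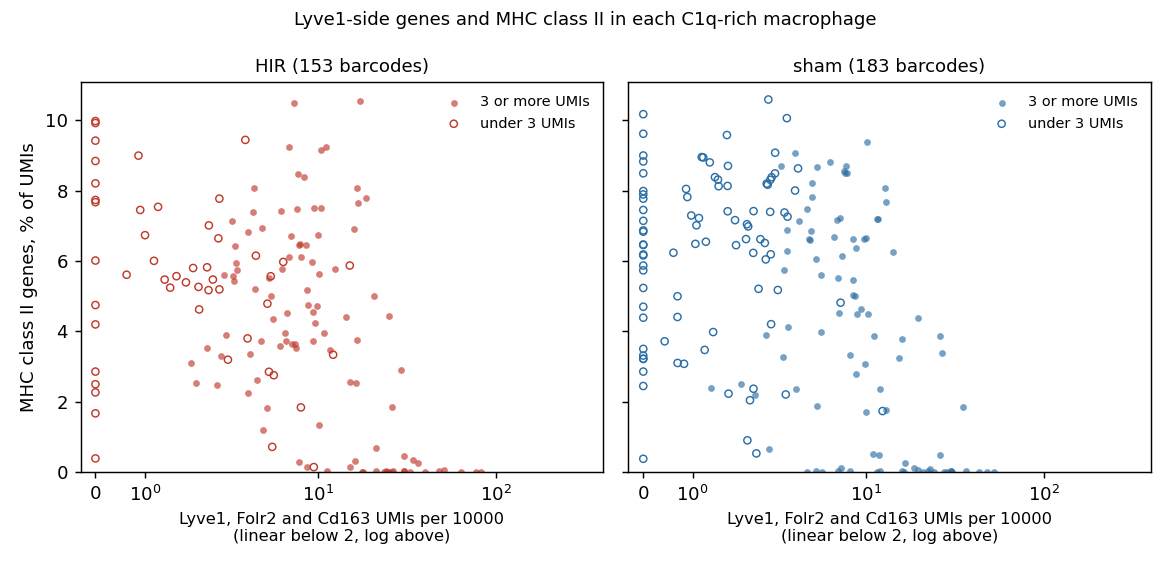
Share of UMIs in MHC II genes (percent) against Lyve1, Folr2 and Cd163 UMIs per 10000 for each member, HIR left and sham right, with filled points for at least 3 such UMIs and open points for fewer. The 30 HIR and 33 sham members below 1% MHC II form a band apart from the rest.

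In both libraries the MHC II-low members had a gene pattern of their own. F13a1, the A chain of coagulation factor XIII, was at 381 CPM in low members and 18.7 in the rest in HIR, a ratio of 20.3 (12.2 to 35.6), and at 471 in low members and 29.1 in the rest in sham, a ratio of 16.2 (11.3 to 23.8). Colec12, a scavenger receptor with a collagen-like stalk, was at 130.4 CPM in low members and 7.89 in the rest in HIR, and at 225 in low members and 15.7 in the rest in sham. The lectin Fcna was 6.62-fold higher in low members in HIR and 5.45-fold in sham. Apoe, the lipid carrier, was at 14193 CPM in low members and 2494 in the rest in HIR, and at 13366 in low members and 2796 in the rest in sham. Trem2 was 4.08-fold higher in low members in HIR and 3.67-fold in sham, and the lysosomal protease Ctsb 4.52-fold in HIR and 3.90-fold in sham. The elastase Mmp12 was lower in low members, at 30.1 CPM against 182 in the rest in HIR, and at 21.0 against 282 in the rest in sham. Il1b was lower too, at 541 CPM against 1339.9 in the rest in HIR, and at 462 against 918 in the rest in sham. These genes were picked after their values were seen. Scrublet called 3 of 30 low members in HIR and 9 of 33 in sham as doublets. Among the rest it called 23 of 123 in HIR and 15 of 150 in sham. Lineage or stromal RNA reached its minimum in 6 low members in HIR and 9 in sham. It did so in 24 of the rest in HIR and 21 in sham. All these members were kept in the values given.

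Differences between HIR and sham were then compared within the low members and within the rest, with the called doublets kept. Ccl4 was at 546 CPM in HIR and 54.0 in sham among low members, a ratio of 10.1 (6.11 to 17.7), with a UMI in 18 of 30 HIR and 7 of 33 sham barcodes. Among the rest Ccl4 was at 555 CPM in HIR and 186 in sham, a ratio of 2.99 (2.56 to 3.50). The level in HIR was thus nearly equal in both sets, and the sham level was lower in the low set. Cxcl2 was at 7046 CPM in HIR and 3378 in sham among low members, a ratio of 2.09 (1.93 to 2.26), and at 8324 in HIR and 7128 in sham among the rest, a ratio of 1.17 (1.13 to 1.20). Cxcl1 showed the same order, with ratios of 2.66 (2.32 to 3.05) among low members and 1.62 among the rest. Cd163 was at 1022 CPM in HIR and 288 in sham among low members, a ratio of 3.55 (2.77 to 4.57), and at 168 in HIR and 91.2 in sham among the rest, a ratio of 1.84 (1.44 to 2.35). Cxcl10 was at a ratio of 4.75 (3.50 to 6.56) among the rest, with a UMI in 27 of 123 HIR and 19 of 150 sham barcodes. Among low members it was found in 3 HIR and 2 sham barcodes, too few to give a direction. Ms4a7 was lower in HIR in both sets, with ratios of 0.32 (0.16 to 0.61) among low members and 0.22 (0.16 to 0.31) among the rest.

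Cycling members were fewer in HIR. Counting members with at least 3 UMIs over Mki67, Top2a, Cdk1, Ccnb1, Birc5 and Cenpf, which dividing cells carry, gave 3 of 153 in HIR (1.96%, 0.406 to 5.62%) and 15 of 183 in sham (8.20%, 4.66 to 13.2%). With members thinned to 2000 UMIs, at least 1 such UMI was left in 7 of 143 HIR members (4.90%) and 20 of 180 sham members (11.1%). The gene set and its minimum were chosen after the values were seen. Stmn1, a tubulin regulator that is high in dividing cells, was at 153 CPM in HIR and 389 in sham, and Birc5, a mitotic survivin, at 9.06 in HIR and 57.3 in sham. Stmn1 was not confined to cycling cells here. It had a UMI in 32.0% of HIR and 43.7% of sham members. Among endothelium-marked barcodes the shares were 80.8% in HIR and 88.9% in sham. Stmn1 and Birc5 were the 2 of 4 tested genes of the cell cycle list that were at least 2-fold lower, against 1.77% of all tested genes. The other 2 were higher in HIR, as Mki67, a marker of dividing cells that is also in the set of 6, was at 57.7 CPM in HIR and 45.5 in sham, a ratio of 1.27 (0.900 to 1.78), and the replication clamp Pcna at 362 in HIR and 279 in sham. Mki67 had a UMI in 4.58% of HIR and 9.29% of sham members, and its log2 ratio ranged between -1.92 and 1.06 over the alternatives.

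The same genes were read in alveolar macrophages, gated by Plet1 and Krt79, with 446 barcodes in HIR and 514 in sham. The HIR over sham ratio in C1q-rich members was divided by that in alveolar macrophages to show where the 2 kinds differ. The alveolar gate held a few barcodes with other RNA. Airway Scgb1a1 was at 166 CPM in HIR and 11603 in sham alveolar macrophages, where 1 HIR and 2 sham barcodes held at least 1% of their UMIs in it. At least 10 C1q UMIs were in 2 HIR and 3 sham alveolar macrophages. Without these barcodes the ratio of ratios of each gene named in this comparison stayed within its interval. For Ccl4 the ratio was 3.50 in C1q-rich members and 1.27 in alveolar macrophages, a ratio of ratios of 2.76 (2.35 to 3.24). For Cxcl10 it was 3.75 against 0.91, a ratio of ratios of 4.14 (3.10 to 5.52). Cxcl1 and Cxcl2 gave 1.94 (1.83 to 2.06) and 1.41 (1.36 to 1.45), since both were at 0.91 in alveolar macrophages. Nfkbia and Sod2 were at 0.96 and 0.70 in alveolar macrophages, and their ratios of ratios were 1.55 and 2.91. Cebpb gave 1.91 (1.80 to 2.03) and Hmox1 2.23. Also read were 619 HIR and 782 sham barcodes with Csf1r and no C1q, Plet1 or Krt79, under the rule's S100a8, S100a9 and Sftpc limits. In these, Cxcl1 was at 450 CPM in HIR and 48.8 in sham, and Cxcl2 at 1654 in HIR and 418 in sham. Cd14 was at 620 CPM in HIR and 115 in sham there. Ccl2 went the other way, at 562 in HIR and 984 in sham. Higher Cxcl1, Cxcl2 and Cd14 in HIR were thus not particular to C1q-rich members.

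Some genes were higher or lower in both kinds of macrophage. Pla2g7 was at a ratio of 5.32 in C1q-rich members and 5.53 in alveolar macrophages, a ratio of ratios of 0.96 (0.50 to 1.84). Dbp was at 0.33 in C1q-rich members and 0.41 in alveolar macrophages, a ratio of ratios of 0.81 (0.56 to 1.15). Mrc1 was at 1.71 in C1q-rich members and 1.40 in alveolar macrophages, a ratio of ratios of 1.23 (1.14 to 1.32). Epsti1 and S100a4, lower in C1q-rich members, were at 1.01 and 1.26 in alveolar macrophages, with ratios of ratios of 0.46 (0.36 to 0.59) and 0.38 (0.35 to 0.42).

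**Figure D5:**
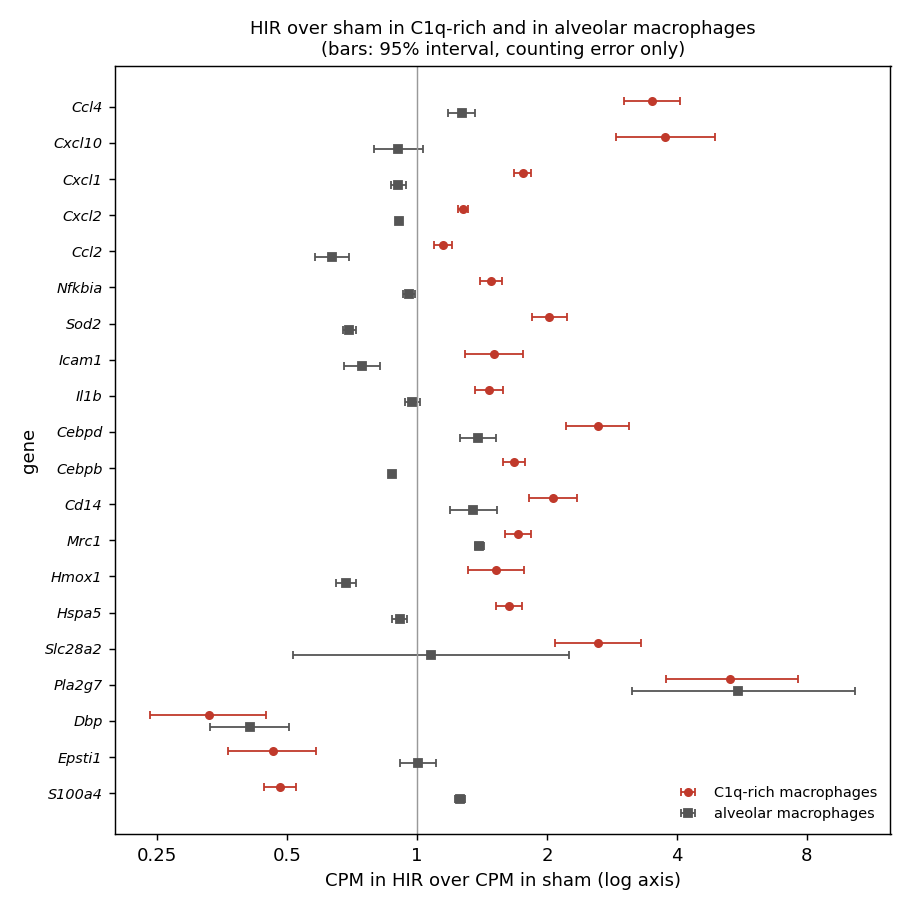
HIR over sham ratio of CPM (log axis, with 95% counting intervals) for 20 genes in C1q-rich members (circles) and in alveolar macrophages (squares). Ccl4 and Cxcl10 lie at 3.50 and 3.75 in C1q-rich members and at 1.27 and 0.91 in alveolar macrophages, while Pla2g7 lies at 5.32 and 5.53.

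Against all other kept barcodes the differences were mixed. Cxcl10, Cxcl1 and Ccl4 had ratios of ratios above 1, at 1.83 (1.40 to 2.40), 1.26 (1.19 to 1.32) and 1.28 (1.10 to 1.49), as did Ccl2, at 1.61 (1.52 to 1.71). Cxcl2 did not, as it was at 937 CPM in HIR and 578 in sham over the other barcodes, a larger ratio than in members. Il1b, Sod2, Cd14 and Nfkbia were higher in members in HIR but more so in the other barcodes, with ratios of ratios of 0.469, 0.585, 0.611 and 0.692. For Cebpd, Slc28a2 and Pla2g7 the interval held 1, with values of 0.944 (0.799 to 1.11), 1.09 (0.858 to 1.38) and 1.16 (0.823 to 1.63). No free RNA was subtracted from any of these values, and its part in them was not tested.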

How the data were processed

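Lung cells from 1 HIR and 1 sham library were analysed from the deposited matrices, which hold a count of UMIs per gene and barcode. Per the submitters' processing notes, Cell Ranger 6.0, STAR, Seurat 4.0 and the mouse genome mm10 were used. Per the file headers, cellranger 5.0.0 wrote the deposited counts, and all 32883 features carry rat identifiers. How these statements fit together is not given in the sources used here. No genome coordinates are in the tables used, and no sequences are shown.

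UMIs were summed per gene over the members of each library and divided by the total, as CPM. Ratios of CPM are HIR over sham with exact conditional binomial 95% intervals, and shares have exact Clopper-Pearson intervals. Ratios of ratios have log-scale Poisson intervals. All intervals cover counting error only. Log2 ratios had 10 CPM added. A count of 3 equals 2.47 CPM in HIR and 1.87 CPM in sham members. Thinning drew 2000 UMIs per member and left out shallower members (10 in HIR, 3 in sham). Free RNA was not subtracted. Scrublet (scanpy 1.11.5) scored doublets, which were called at 0.8% per 1000 barcodes, and kept in the main values. Members with 2 or more UMIs of lineage genes of other cells, or 10 or more over Col1a1, Col3a1 and Dcn, were left out in an alternative. Endothelium-marked barcodes held at least 3 UMIs of Cdh5 and Cldn5 with no Ptprc and no C1q.

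Named genes were the 15 highest and 15 lowest log2 ratios among genes that reached 100 CPM in one library and 50 UMIs in all. Their interval had to leave out 1, and their level had to reach 0.5 times that of all kept barcodes. Hemoglobin, mitochondrial, ribosomal, sex-linked and immune receptor genes and markers of other cells were left out. From each of 26 gene lists, up to 4 genes with the largest ratio and up to 3 with the highest level were added. Cell identity was read from 22 marker lists. The members, the lists and the rule were chosen with earlier results of these data known. Some listed genes, such as Timd4, Ccr2 and Cd36, were not analysed here, and 1 of the lowest genes and a few list genes are not reported here. Python 3.11.15, scipy 1.17.1 and pandas 2.3.3 were used, and the scripts were tested on simulated data.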

Additional observations from a re-analysis of the deposited data

How the results depend on the processing

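With 1 library per group there is no replicate spread, and the intervals cover counting error only. Free RNA and doublets bear most on genes that other cells carry, and at this depth a gene under 2.47 CPM in HIR or 1.87 CPM in sham members rests on fewer than 3 UMIs. No paired analysis was possible because each group has 1 library and no result comes from a test.

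The ratio of member shares ranged between 0.814 and 1.06 over its alternatives, and every interval held 1. The Lyve1-side share in HIR was 83.0% with at least 2 UMIs, 59.5% by Lyve1 and Folr2 alone and 27.3% after thinning, and in sham it was 66.7% with at least 2 UMIs and 18.9% after thinning. It was larger in HIR under each, though the intervals of the libraries overlapped by Lyve1 and Folr2 alone and after thinning. The share of sham members with Cxcl2 was 81.1% after thinning. The count of 24 genes at least 2-fold higher became 39 with at least 10 UMIs and no CPM minimum. The count of 51 genes at least 2-fold lower was less stable. It became 77 at no more than 10% mitochondrial UMIs, 112 with no CPM minimum and 28 without the richest member of each gene. It became 18 without Scrublet doublets, 25 without mixed-lineage members, 15 without mixed-lineage and stromal members and 12 with CPM averaged over barcodes. The cause was not tested. Over 156 named genes, 2041 alternative values stayed within the counting interval, 297 moved outside it and 2 of genes past 2-fold turned sign. Those that turned were Vegfa without Scrublet doublets, at a log2 ratio of 0.089, and Cd163 among members with fewer than 3 Lyve1-side UMIs, at -0.16. The limit of that setting itself caps Cd163. Its level there, 12.6 CPM in HIR and 15.1 in sham, rests on too few UMIs to give a direction. Of the genes named first, Ccl4 ranged between 1.40 and 1.90, Cebpd between 1.15 and 1.43, and Pla2g7 between 1.88 and 2.37 on the log2 scale.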

Other observations

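Hemoglobin transcripts were left out of the named genes. Hba-a1 was at 4453 CPM in HIR members and 3275 CPM in sham members. In alveolar macrophages it was at 226 CPM in HIR and 629 CPM in sham, and over all kept barcodes at 3581 CPM in HIR and 9321 CPM in sham. Hba-a2 was at 1033 CPM in HIR and 1657 CPM in sham members, and Hbb at 129 CPM in HIR and 131 CPM in sham members, so the hemoglobin genes did not share a direction in members. The cause was not tested. Slpi, a secreted protease inhibitor, was at 109.6 CPM in HIR and 4.98 CPM in sham members, with 86.5% of its HIR UMIs in 1 barcode.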
